A study of Mus musculus with 12 samples.

Results

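Helicases of the DEAD and DEAH box families were compared between scurfy and wild-type CD8 T cells at rest. The members were the genes of the deposited table whose symbol starts with Ddx or Dhx followed by a digit, leaving out Ddx3x and Ddx3y, which gave 49 of 11581 genes, 33 Ddx and 16 Dhx. They were taken by symbol alone and are called helicases below, and whether each encodes one was not checked. The cells were highly purified CD8 T cells, taken 2 months after bone marrow reconstitution from CD45.2+ C57BL/6 J mice. The marrow was a mixture of CD45.2+ donor cells with CD45.1+/2+ OT-1 cells that were either Foxp3Scurfy or Foxp3wt. The OT-1 transgene gives T cells a receptor for the SIINFEKL peptide of ovalbumin. The scurfy allele disables Foxp3, a forkhead transcription factor that defines regulatory T cells. The labels do not name the markers by which the cells were purified, so whether CD8 T cells of the partner marrow or of the host were included is not known here. The series has 12 samples, 3 in each of 4 groups. Only the resting libraries were compared, 3 scurfy with 3 wild type, and those given peptide for 6 h were not analysed here.

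DEAD and DEAH box proteins use ATP to unwind RNA or to strip proteins from it, and are named after the amino acids of one conserved motif. They act at nearly every step in the life of an RNA: assembly and disassembly of the spliceosome, maturation of ribosomal RNA in the nucleolus, export, translation, decay and sensing of viral RNA. T cells at rest hold a low rate of RNA and protein synthesis and raise it sharply on activation.

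The values of each library were whole multiples of one step, and counted in steps the libraries held 8852518 to 23149523, wild-type library 2 holding the most. For counting error alone, 3 steps correspond to 1.45 to 3.99 normalized counts, and every member lay above that in every library. All 8 planned CD8 T cell markers had a row, with summed levels of 74658 to 80047 normalized counts in scurfy and 67014 to 68519 in wild-type libraries. Of markers of other cells, 8 of 13 for B cells had a row (summed 9915 to 11806 in scurfy, 11035 to 11932 in wild type), 1 of 8 for myeloid cells (Cst3, 1406 to 1523 against 821 to 1131), 1 of 8 for erythroid cells (Car2, 101 to 156 against 232 to 315), and none of 4 each for CD4 T and natural killer cells. The B cell sum was mostly Ighm, with means of 10309 in scurfy and 10862 in wild type. Of the markers with a row, Cd3d and Cst3 rose (limma adjusted p = 0.00551 and 0.0202) and H2-Aa and Car2 fell (0.0164 and 0.0139), and H2-Aa was at 0 in scurfy library 2. All 8 B cell markers with a row had a negative log2 fold change, with a median of -0.71. Of these 8 markers, 4 did not overlap between groups (50%), against 27.1% of all genes (13.7% lower). They were H2-Aa, H2-Ab1, H2-Eb1 and Cd74, the class II genes and the invariant chain. Ighm (-0.08), Ighd (-0.17), Cd79b (-0.25) and Igkc (-0.43) overlapped. Igkc was at 46.0, 454 and 20.1 normalized counts in scurfy and 34.6, 63.3 and 480 in wild-type libraries. Of the 8 CD8 T cell markers 4 did not overlap either (50%), Cd3d, Cd3g, Thy1 and Trac, all higher in scurfy. H2-Ab1 was at 4.84, 0 and 0 normalized counts in scurfy libraries and 11.96, 18.4 and 31.1 in wild-type ones (adjusted p = 0.0638). H2-Eb1 averaged 4.39 and 24.5 (adjusted p = 0.0844), and Cd74 averaged 16.4 and 33.6 (adjusted p = 0.202). Their part in the results below was not tested. Foxp3 itself has no row, so the genotype labels were not checked on it. The labels do not tie the libraries to separate animals, and the p-values therefore cover only the spread among these 6 samples, part or all of which may be technical. In bulk RNA, fewer cells of a type and less RNA per cell cannot be told apart.

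The promoters of Dhx36 and Ddx17 are shown because these were the members that passed the test. RefSeq (GRCm38.p6, a later build than the NCBIM37 of the submitters' processing notes) gave promoter windows, from 250 bases before to 50 after a start site, for 42 of the 49 members, 53 windows in all. Capitals mark matches, on either strand, to the Ets core CCGGAA, the cAMP response element TGACGTCA, the CCAAT box, the TATA box TATAAA, the GC box GGGCGG, the forkhead motif TGTTTAC and the E-box CACGTG. The motifs were chosen with results of these data known, and no match overlaps another in the windows printed. The window of Dhx36 lies at chr3:62506939-62507238, and those of Ddx17 at chr15:79546692-79546991 and chr15:79532868-79533167, all on the minus strand.
Dhx36: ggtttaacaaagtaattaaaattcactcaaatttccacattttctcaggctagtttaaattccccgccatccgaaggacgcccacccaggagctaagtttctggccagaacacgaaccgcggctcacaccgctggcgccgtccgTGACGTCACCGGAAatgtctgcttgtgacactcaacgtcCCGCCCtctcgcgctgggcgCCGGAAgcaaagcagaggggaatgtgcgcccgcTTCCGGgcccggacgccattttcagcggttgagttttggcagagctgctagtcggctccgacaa
Ddx17, upstream start: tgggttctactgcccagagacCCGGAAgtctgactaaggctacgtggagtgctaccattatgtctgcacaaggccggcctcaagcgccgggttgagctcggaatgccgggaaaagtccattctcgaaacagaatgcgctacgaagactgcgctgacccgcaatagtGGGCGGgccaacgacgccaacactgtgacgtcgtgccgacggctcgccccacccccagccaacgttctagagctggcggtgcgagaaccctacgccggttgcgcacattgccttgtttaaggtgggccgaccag
Ddx17, downstream start: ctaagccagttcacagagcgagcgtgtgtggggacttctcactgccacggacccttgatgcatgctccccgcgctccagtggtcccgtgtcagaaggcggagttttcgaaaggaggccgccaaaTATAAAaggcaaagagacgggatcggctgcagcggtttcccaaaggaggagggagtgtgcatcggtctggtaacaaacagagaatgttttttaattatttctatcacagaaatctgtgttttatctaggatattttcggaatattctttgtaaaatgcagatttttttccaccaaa
Dhx36 held 3 Ets cores, 1 cAMP response element and 1 GC box, and the upstream window of Ddx17 held 1 Ets core and 1 GC box. The downstream window of Ddx17 held 1 TATA box. None of the 3 windows held the forkhead letters. Over all members, the Ets core was in 47.2% of windows, against 14.9% of all 32851 RefSeq windows of this length and 30.1% of the windows of genes in the table. The cAMP response element was in 11.3% (1.79% and 3.37%), the CCAAT box in 43.4% (37.4% and 37.9%), the TATA box in 11.3% (13.6% and 6.36%), the GC box in 56.6% (35.7% and 63.8%), the forkhead motif in 7.55% (3.65% and 2.55%) and the E-box in 9.43% (7.15% and 10.4%). Windows of one gene can share bases, and a match is not a binding site.

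Of the 49 helicases, Dhx36 and Ddx17 were lower in scurfy cells, none was higher, and 47 did not pass. That is 4.08% of the members, against 4.47% of all 11581 genes that passed in either direction (2.12% higher and 2.35% lower), so the share called was near the background. The test was limma on log2(normalized count + 1), with Benjamini-Hochberg adjustment over all genes at 0.05. An unadjusted p under 0.05 was found for 13 members (26.5%), against 21.2% of all genes. The groups did not overlap for 14 members (28.6%), 6 higher and 8 lower, against 27.1% of all genes (13.4% higher and 13.7% lower). The median log2 fold change was -0.072 over the members and 0.01 over all genes, and the median of its size 0.27 and 0.25. Of the members 29 had a negative and 20 a positive log2 fold change, and 38 lay within 0.4 of 0. Of all 11581 genes 5660 were negative and 5921 positive, and 8066 lay within 0.4 of 0. In the authors' deposited table, 5 of the 47 members with an adjusted p passed 0.05, against 8.9% of the 10008 genes with one (4.15% higher and 4.76% lower): Dhx36, Ddx17, Ddx6 and Dhx15 lower and Dhx34 higher. Scaled by library size alone, in place of the size factors, the median of all genes moved from 0.01 to -0.13 and that of the members to -0.21. On that scale 168 genes were called higher (1.45%) and 761 lower (6.57%), 8.02% in all, against 246 and 272 as reported, and Ddx6, Dhx15 and Ddx5 joined Dhx36 and Ddx17 among the members called lower.

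**Figure D1:**
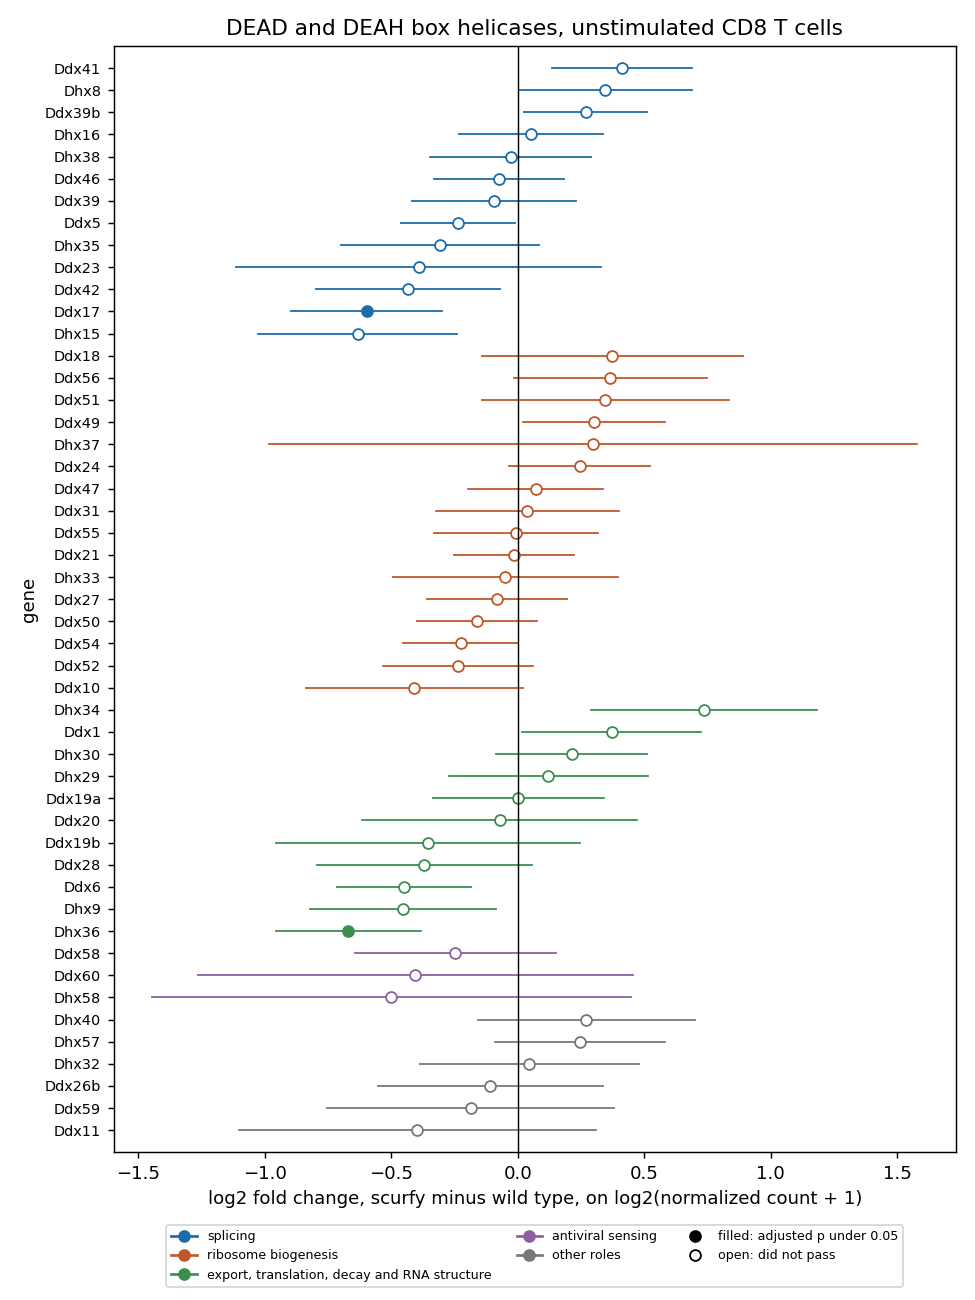
Log2 fold change (scurfy minus wild type, on log2(normalized count + 1)) of each of the 49 helicases on the horizontal axis, grouped and coloured by role, with 95% confidence intervals from limma as lines. Dhx36 and Ddx17 are filled because they passed an adjusted p of 0.05; the other 47 are open, and most intervals cross 0.

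Dhx36 (ENSMUSG00000027770, chromosome 3 in GENCODE M21) encodes the helicase that unwinds G-quadruplexes in DNA and RNA. In order of replicate number, its level was 431, 474 and 472 normalized counts in the scurfy and 647, 792 and 756 in the wild-type libraries. All 3 scurfy libraries lay below all 3 wild-type libraries, and the scurfy values were close together. The means were 459 ± 24.0 and 732 ± 75.4 (SD, n = 3 each), 1.59-fold lower in scurfy, a log2 fold change of -0.67 (SE 0.13, 95% interval -0.95 to -0.38, limma adjusted p = 0.0158). The authors' deposited table gives -0.68 with an adjusted p of 0.000475. The call ended without wild-type library 2 (adjusted p = 0.0619) or wild-type library 3 (0.0622) and held when any 1 of the other 4 libraries was left out.

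Ddx17 (ENSMUSG00000055065, chromosome 15) encodes a co-regulator of transcription and splicing, a close paralogue of Ddx5. It was at 1604, 2117 and 1511 normalized counts in scurfy libraries and at 2318, 2510 and 3056 in wild-type libraries. The groups did not overlap, although scurfy library 2 came near the lowest wild-type library. The means were 1744 ± 327 and 2628 ± 383 (SD, n = 3 each), 1.51-fold lower in scurfy, a log2 fold change of -0.60 (SE 0.14, 95% interval -0.89 to -0.30, limma adjusted p = 0.0274). The authors' deposited table gives -0.59 with an adjusted p of 0.00376. The call ended without scurfy library 1 (adjusted p = 0.0769), scurfy library 3 (0.0743), wild-type library 2 (0.0678) or wild-type library 3 (0.107). Ddx17 shares 4 exonic bases with Kdelr3 on the opposite strand.

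**Figure D2:**
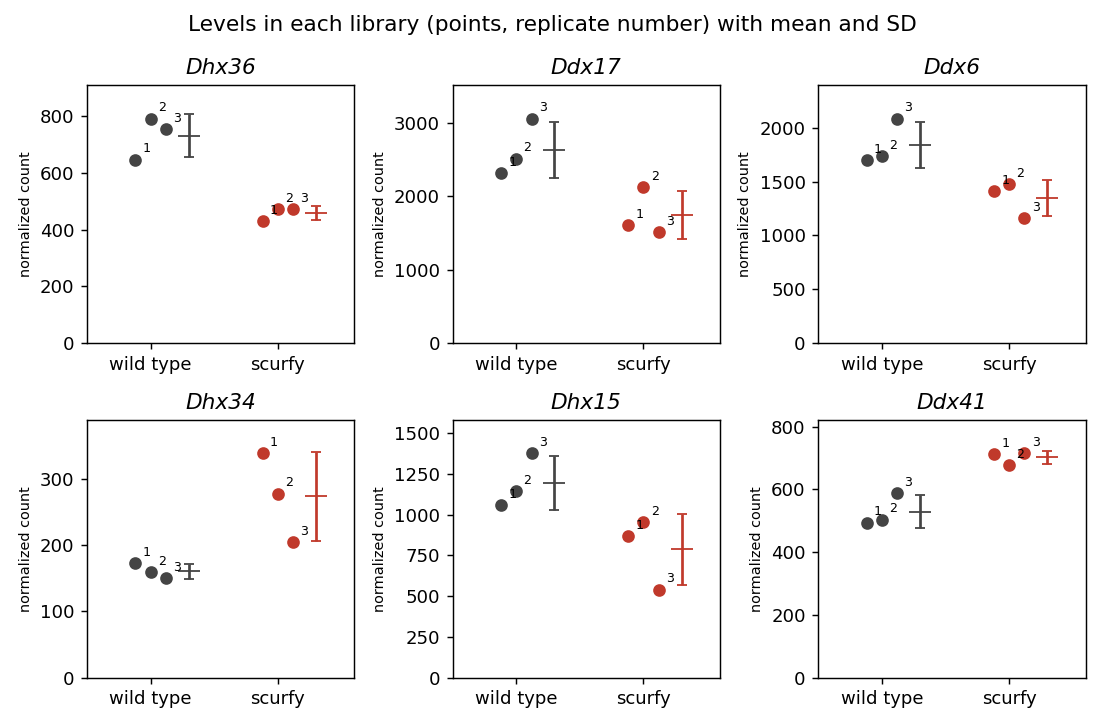
Normalized counts (vertical axes, from 0) of the 6 helicases with the smallest p in each wild-type and scurfy library, as points with their replicate number, beside the mean and SD of the 3 libraries. The groups do not overlap in any of the 6 panels, which were picked by p from these same libraries. Over all members 28.6% do not overlap, against 27.1% of all genes. Dhx34 and Ddx41 are higher and the other 4 lower in scurfy libraries, with Dhx36 and Ddx17 past the threshold.

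Among 13 splicing helicases Ddx17 fell and 12 did not pass, and the median log2 fold change was -0.09. An unadjusted p under 0.05 was found for 7 of them (53.8%, against 21.2% of all genes). These went both ways: Ddx17, Dhx15, Ddx42 and Ddx5 were lower and Ddx41, Ddx39b and Dhx8 higher in scurfy. The splicing helicases had a median level of 843 normalized counts, against 247 over all genes, so the 2 shares are of genes at unlike levels. Of those that did not pass, Dhx15, the Prp43 homologue that takes the spliceosome apart, was at 866, 954 and 540.2 normalized counts in scurfy libraries and 1058, 1144 and 1376 in wild-type libraries, with scurfy library 3 far below the other 2. Its log2 fold change was -0.63 (limma adjusted p = 0.0658), and without scurfy library 3 it was -0.38 (0.141). Ddx41, a spliceosome-associated helicase, was at 702 ± 21.3 in scurfy and 529 ± 52.1 in wild type (SD, n = 3 each), at 0.41 with adjusted p = 0.0843. It shares 467 exonic bases with the antisense gene Gm46416, and no source used here states whether counting used strand. Ddx42, which binds the U2 component SF3B, was at -0.43 (-0.26 without scurfy library 3), Dhx8, the Prp22 homologue that releases spliced RNA, at 0.35, and Dhx35 of the spliceosome's C complex at -0.31. Ddx39b, also called UAP56, which serves spliceosome assembly and export, was at 0.27 with adjusted p = 0.194. Ddx46, the Prp5 homologue of U2 function, was at -0.07 (95% interval -0.33 to 0.18).

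Ribosome biogenesis helicases, most of them nucleolar, had no call: of 16 members none passed in limma, 1 had an unadjusted p under 0.05 (6.25%, against 21.2% of all genes), and none passed in the authors' deposited table. Their median log2 fold change was 0.02, with 8 members below 0 and 8 above. Ddx49, the Dbp8 homologue, had the smallest p of them, averaging 838 normalized counts in scurfy libraries against 684 in wild-type ones (log2 fold change 0.30, adjusted p = 0.202). It shares 874 exonic bases with Homer3 on the opposite strand. Ddx10 (-0.41), Ddx54 (-0.23) and Ddx52 (-0.23) were lower and Ddx56 (0.36) and Ddx24 (0.25) higher on average, none of them past the threshold. Ddx21, a nucleolar helicase of ribosomal RNA synthesis, was at 1099, 1059 and 1195 normalized counts in scurfy libraries and 1067, 1185 and 1135 in wild-type libraries. Its 95% interval ran from -0.25 to 0.22, which covers only the spread among these 6 libraries as scaled by the size factors. That of Ddx55, the Spb4 homologue, ran from -0.33 to 0.32.

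Of 11 helicases of export, translation, decay and RNA structure Dhx36 fell and 10 did not pass. An unadjusted p under 0.05 was found for 5 (45.5%, against 21.2% of all genes). These too went both ways: Dhx36, Ddx6 and Dhx9 were lower and Dhx34 and Ddx1 higher in scurfy. Ddx6, which represses translation and promotes decapping in P-bodies, came closest among all members that did not pass. It was at 1412, 1474 and 1162 normalized counts in scurfy and 1699, 1738 and 2087 in wild-type libraries, with no overlap. Its log2 fold change was -0.45 (SE 0.12, limma adjusted p = 0.0537), and the authors' deposited table gives an adjusted p of 0.0208. Dhx34, a factor of nonsense-mediated decay, had the largest positive log2 fold change of all members, 0.74 (adjusted p = 0.0594). It was at 339, 278 and 205 normalized counts in scurfy and 173, 160.0 and 150.2 in wild-type libraries, the scurfy libraries being spread more widely. Leaving out 1 library moved it between 0.57 (without scurfy library 1, adjusted p = 0.191) and 0.93 (without scurfy library 3, adjusted p = 0.0316). It did not pass in the other 5 of these 6 fits. Dhx9, RNA helicase A, was at -0.45 (adjusted p = 0.144), and the groups overlapped. Without scurfy library 3 it was at -0.23 (adjusted p = 0.377). Ddx1 of the tRNA ligase complex was at 0.37 and Ddx28, of mitochondrial ribosome assembly, at -0.37. Ddx19a, the Dbp5 homologue at the nuclear pore, was at 0.00 (95% interval -0.34 to 0.34).

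None of 3 antiviral helicases passed, and all 3 had wide intervals. Ddx58, which is RIG-I, the sensor of viral RNA ends, was at 659, 376 and 409 normalized counts in scurfy and 597, 536 and 530 in wild-type libraries (log2 fold change -0.25, 95% interval -0.64 to 0.15). Ddx60 and Dhx58, which is LGP2, were low, with means of 40.6 and 23.6 normalized counts over the 6 libraries. Of 6 members with other or unassigned roles none passed. Dhx57 had the smallest p, at 0.25 (adjusted p = 0.394). Ddx26b, a member by its symbol in the deposited table but named Ints6l in GENCODE M21, was at -0.11.

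Levels between members were compared per kilobase of exon, as normalized counts averaged over the 6 libraries. The order was led by Ddx5, at 1472 per kilobase, followed by Ddx39b (683), Ddx46 (347), Ddx17 (286) and Ddx49 (259.8). The lowest were Dhx37 at 2.37, Ddx60 at 4.67 and Dhx58 at 7.22. How evenly the reads cover the exons is not known here. Ddx5, at 7673, 7451 and 8283 normalized counts in scurfy and 8632, 10000.4 and 8951 in wild-type libraries, did not overlap between groups. Its difference was -0.24 on the log2 scale (adjusted p = 0.211).

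Paralogues were set side by side in 4 pairs, as the ratio of their normalized counts in each library. Ddx5 over Ddx17 was 4.59 ± 0.995 in scurfy and 3.55 ± 0.55 in wild type (SD, n = 3 each), and the ranges overlapped. The difference of the log2 ratio was 0.36 for that pair (two-sided exact permutation p = 0.3), 0.36 for Ddx39b over Ddx39 (exact p = 0.4), 0.15 for Ddx21 over Ddx50 (exact p = 0.2) and 0.36 for Ddx19a over Ddx19b (exact p = 0.2). After Benjamini-Hochberg adjustment over the 4 pairs each exact p was 0.4, and 3 against 3 libraries cannot give a p below 0.1. Of the members 13 share exonic bases with another annotated gene, 11 of them with one on the opposite strand, Ddx39 sharing 895 with Adgre5 and Ddx54 sharing 869 with an antisense gene.

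Genes that work with these helicases were followed in 7 lists. In the list of 11 partners of Ddx6, 3 genes fell (27.3%, against 2.35% of all genes called lower), 8 did not pass and the median log2 fold change was -0.29. The list was chosen with results of these data known. Xrn1, the 5'-to-3' exonuclease of decay, was at 455, 444 and 422 normalized counts in scurfy and 730, 582 and 759.6 in wild-type libraries, a fall of 0.64 on the log2 scale (limma adjusted p = 0.0231). Eif4enif1, which binds the cap-binding protein eIF4E and helps form P-bodies, was at 567, 458 and 398 in scurfy and 673, 748 and 689.9 in wild-type libraries. It fell by 0.58 on the log2 scale (adjusted p = 0.039). Lsm14a, a P-body scaffold, was at 450, 428 and 297 in scurfy and 493, 696 and 817 in wild-type libraries, and fell by 0.76 (adjusted p = 0.0437). None of the 3 overlapped between groups, but they were named because they passed on these same libraries. Over the list 4 of 11 genes did not overlap (36.4%), against 27.1% of all genes. Xrn1 lost its call without scurfy library 2 or 3 or wild-type library 1 or 3, Eif4enif1 without any library except scurfy 1, and Lsm14a without any except scurfy 1 and wild type 1. All 3 lost it without wild-type library 3, with adjusted p of 0.0894 for Xrn1, 0.0969 for Eif4enif1 and 0.16 for Lsm14a. With the replicate number as a block only Xrn1 passed (adjusted p = 0.0339).

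The 20 RNA helicases with other names that had a row were 10 below and 10 above 0, with a median log2 fold change of -0.0052. Of the other 5 lists none had a call. They were G-patch cofactors (20 genes, with Son, a splicing protein, at 0.53 and adjusted p = 0.0594), MIF4G and exon junction proteins (15, with Magoh at 1.06 and 0.108), the TREX export partners of Ddx39b (13, with Thoc2 at -0.50 and 0.137), the SMN complex around Ddx20 (7, with Smn1 at 0.39 and 0.197), and the RIG-I pathway (11, with the kinase Ikbke at 0.28 and 0.138). Magoh was at 658, 479.9 and 230.0 normalized counts in the wild-type libraries, in order of replicate number. Its log2 fold change was 0.64 without wild-type library 3 (adjusted p = 0.0721) and 1.39 without wild-type library 1, where it passed (0.0251). That of Son was 0.32 without scurfy library 3 (adjusted p = 0.124). These 5 lists held 6, 3, 3, 2 and 3 genes with an unadjusted p under 0.05 (30%, 20%, 23.1%, 28.6% and 27.3%, near the 21.2% of all genes), and in the authors' deposited table Son passed as the only one of them (adjusted p = 0.0117).

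Calls differed in direction with gene length. Of all genes over 5000 bases of exon, 17 were called higher and 152 lower in scurfy, and of those under 3000 bases 183 higher and 47 lower. The median exonic length was 5170 bases over the members and 4075 over all genes. Of the 7 members under 3000 bases 5 had positive log2 fold changes, as had 2500 of the 4068 genes of that length. The median of these members was 0.30, against 0.12 over those genes. The 13 members of 3000 to 5000 bases had a median of -0.03 against 0.00, and the 29 over 5000 bases a median of -0.11 against -0.06. Dhx36, with 10217 bases, and Ddx17, with 7643, are in the longest class. With the trend of each library with length removed, Dhx36 was at -0.58 and passed (adjusted p = 0.0361), and Ddx17 was at -0.52 and lost its call (0.0662). Xrn1, Eif4enif1 and Lsm14a lost theirs too (adjusted p from 0.0702 to 0.0866).

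**Figure D3:**
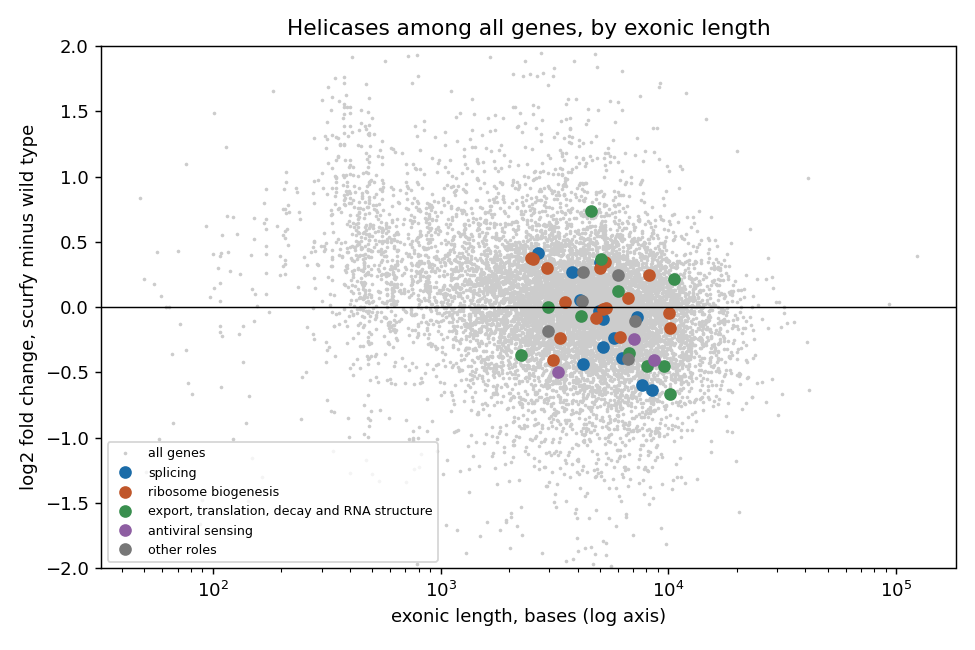
Log2 fold change (scurfy minus wild type) of all genes (grey) and of the 49 helicases (coloured by role) against exonic length in bases on a log axis; 61 genes beyond 2 in either direction lie outside the plot. The helicases sit inside the cloud of all genes. Most of the helicases over 5000 bases lie below 0 (20 of 29, against 2589 of the 4488 genes of that length).

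The 5 members with the smallest p were followed through 15 settings, the reported one and 14 alternatives. Dhx36 had the smallest adjusted p of them in 14 settings and Ddx17 in 1. Over the alternatives that of Dhx36 ran from 0.00713 to 0.137 and that of Ddx17 from 0.0116 to 0.202. The number of members called is read against the share of all genes called under the same setting. A pseudocount of 5 or 0.5 called 2 members each (4.88% and 4.36% of all genes), and a mean of at least 50 normalized counts called 4 (6.78%). Limma without its trend and robust options called 0 (0% of genes), although 7 members and 2106 genes had an unadjusted p under 0.05. With the replicate number as a block 2 were called (3.21%), with the length trend removed 1 (2.6%) and with both 0 (1.14%). Leaving out scurfy library 1, 2 or 3 or wild-type library 1 called 2 members each (3.48%, 1.91%, 1.99% and 2.64%). Leaving out wild-type library 2 or 3 called none (1.86% and 0.976%). An unadjusted p under 0.05 was then found for 7 and 15 of 49 members, against 2073 and 2053 of 11581 genes.

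**Figure D4:**
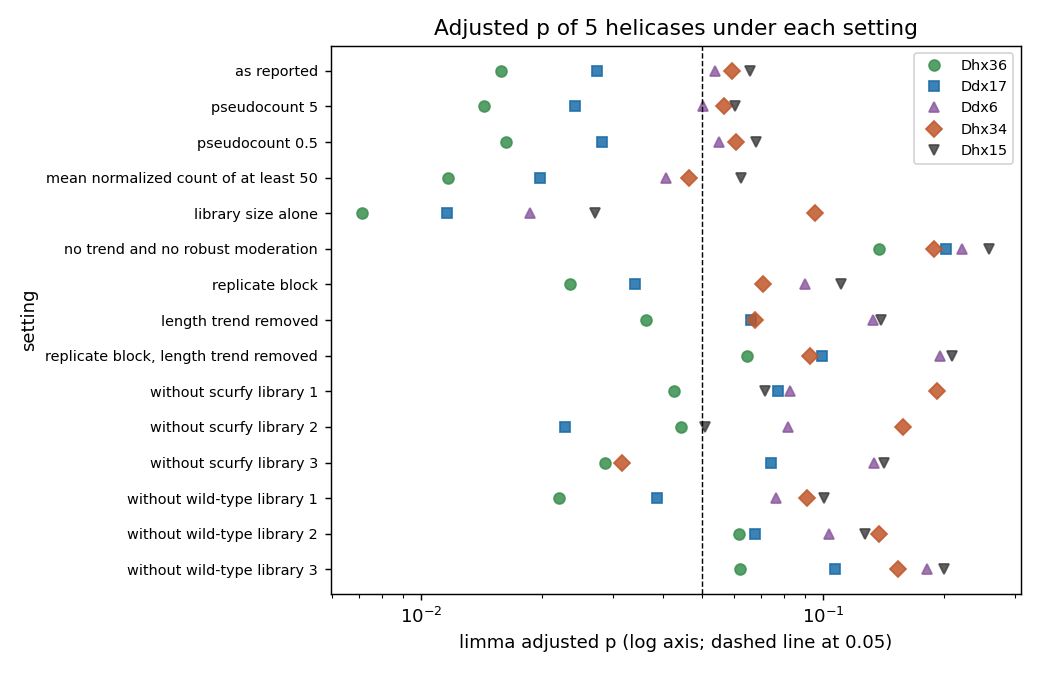
Limma adjusted p (log axis, dashed line at 0.05) of the 5 helicases with the smallest p under the reported setting and each alternative. Dhx36 stays left of the line in 10 of the 14 alternatives and Ddx17 in 7, and without wild-type library 2 or 3 none of the 5 passes.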

How the data were processed

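Messenger RNA of CD8 T cells was sequenced. Per the labels' protocols, libraries were primed with oligo-dT on polyadenylated RNA and amplified by T7 transcription before sequencing. Per the submitters' processing notes, Trim Galore 0.4.4, STAR 2.6, featureCounts, edgeR and DESeq2 were used with build NCBIM37, without stated roles. The deposited signal holds normalized counts: judging by the values, reads scaled by 1 factor in each library, since 100% of them were whole multiples of a step to within 0.01. The authors' deposited table also holds log2 fold changes, their errors, a score (the test statistic) and p-values. The second of 2 tables, named for stimulated cells, is a copy holding the same resting libraries and was not used. Values of the libraries given peptide were therefore not at hand. The smallest mean in the table is 7.1, and a gene without a row says nothing of its level.

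The values were tested with limma 3.58.1 (R 4.3.3) on log2(value + 1), which understates changes of low genes, with variance trend and robust moderation, over 6 libraries without covariates. The script was tested on simulated data. Exonic lengths and chromosomes of all 49 members are from GENCODE M21 (GRCm38), promoters from RefSeq. Genes named were members that passed, further members by p up to 20, the smallest p of each role, the 5 highest per kilobase, and up to 4 called genes, or the smallest p, of each of 7 related lists. Other members are named to show values. The result of 1 gene that the rule names is not reported here. Members and lists were chosen with earlier results of these data known.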

Additional observations from a re-analysis of the deposited data

How the results depend on the processing

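Over 8 alternatives other than leaving out a library, the values that moved were these. With a mean normalized count of at least 50, 1 member was called higher (Dhx34), 3 members of export, translation, decay and RNA structure passed, and 2 RNA helicases with other names. On library size alone 761 genes were called lower, with 5 members lower, 3 of splicing and 2 of export, translation, decay and RNA structure, and a median of -0.21; the lists had 2 RNA helicases with other names, 1 G-patch, 1 MIF4G and exon junction and 1 TREX gene. Without trend and robust moderation limma called 0 genes higher and 0 lower, so 0 members, roles or lists (unadjusted p under 0.05: 2106 genes and 7 members; smallest adjusted p 0.115; as reported 518 genes passed). With the replicate block the members called did not change and 1 partner of Ddx6 passed. With the length trend removed 120 genes were higher and 181 lower, with 1 member lower, 0 of splicing, 0 RNA helicases with other names, 1 G-patch gene and 0 partners of Ddx6. With the replicate block and the length trend removed these were 56 and 76 genes, 0 members, 0 in either role, 0, 1 and 0. The causes were not tested.

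Leaving out one library gave 76 to 180 genes higher and 37 to 223 lower, 0 to 1 members higher and 0 to 2 lower, 0 to 2 in export, translation, decay and RNA structure and 0 to 1 in splicing. The other roles stayed at 0. The lists gave 0 to 1 RNA helicases with other names, 0 to 2 G-patch, 0 to 1 MIF4G and exon junction and 0 to 3 Ddx6 partners, and the member median ran from -0.084 to -0.017. Without wild-type library 2 or 3 no member passed (7 and 15 had an unadjusted p under 0.05, against 2073 and 2053 of 11581 genes). Without scurfy library 1 Ddx42 passed beside Dhx36. Only Ddx46, of the named genes, changed sign, to 0.011 without scurfy library 1, with a range of -0.18 to 0.011. Same-numbered libraries had correlations of -0.03, -0.07 and -0.15, and those of unlike number ran from -0.12 to 0.16. These are of deviations from a mean of 3 libraries, and cannot show whether the libraries were paired. The planned edgeR and DESeq2 fits on read counts were not run. The whole-read check takes the smallest value above 0 as 1 read, and was not met for wild-type library 2. In that library the smallest value was 2 steps, and 100% of the values were whole multiples of the step.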
